A study of Mus musculus with 8 samples.

Results

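The 7 genes that encode cyclin-dependent kinase (CDK) inhibitors in the mouse, Cdkn1a, Cdkn1b, Cdkn1c, Cdkn2a, Cdkn2b, Cdkn2c and Cdkn2d, were taken by name from the 26212 annotated protein-coding and noncoding genes of the mouse genome build mm9. The H3K4me3 mark, trimethylation of lysine 4 of histone H3, was followed at each of their transcription start sites as the number of ChIP-Seq tags within 1 kb of the start and as the width of the marked stretch. CDK inhibitors bind cyclin-CDK complexes and hold cells before DNA replication. The INK4 family (Cdkn2a, Cdkn2b, Cdkn2c and Cdkn2d) binds the kinases CDK4 and CDK6, which otherwise phosphorylate the retinoblastoma protein, and the Cip/Kip family (Cdkn1a, Cdkn1b and Cdkn1c) binds a wider range of cyclin-CDK complexes. Menin, the product of Men1, is a component of MLL complexes that place H3K4me3, and in islet endocrine cells Cdkn1b (p27Kip1) and Cdkn2c (p18Ink4c) are known as genes that menin and MLL act on. The comparison of cells with and without menin therefore asks whether the mark at these genes depends on menin.

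Cells of 4 kinds with the 129S6/SvEvTac background were compared. These were wild-type (wt) mouse embryonic stem cells (mESCs) of the line TC-1, menin-null mESCs of the line 3.2N, in which Men1 is knocked out, and the pancreatic islet-like endocrine cells (PILECs) obtained from each line by differentiation in culture. For each kind 1 H3K4me3 library and 1 input library were sequenced, which makes 8. With 1 cell line per genotype and 1 library per condition there were no replicates, so that a difference between genotypes cannot be told apart from a difference between the lines, and no p-value is given. The H3K4me3 libraries held 2432377 to 18773635 tags and the input libraries 3744616 to 19016697, the PILEC libraries being the deeper ones, and the tag counts were divided by the library total and multiplied by 1000000 (RPM). Intervals are exact 95% intervals that cover counting error only, unless stated otherwise. Where a ratio was divided by the input ratio or the input was subtracted, the H3K4me3 limits were moved with it. Such intervals leave out the counting error of the input. Intervals of the difference between the stages in the menin-null over wt ratio are normal approximations. Over exons 3 to 8 of Men1 17 and 22 input tags were found in wt mESCs and wt PILECs and 0 in each of the menin-null inputs, where a count of 0 allows up to 3 tags. The 6 markers of pluripotent cells summed to 236 RPM of H3K4me3 in wt mESCs and 313 in menin-null mESCs and to 73.5 RPM in the PILECs of each genotype. Pou5f1 was at 55.9 (wt) and 78.5 RPM (menin-null) in mESCs and at 3.68 and 2.43 RPM in PILECs, where Nanog and Zfp42 lay between 1.33 and 2.93 RPM. Most of the sum in PILECs came from Sox2, at 26.8 (wt) and 30.0 RPM (menin-null), and Klf4, at 29.1 and 26.4 RPM. Esrrb was at 9.69 and 11.8 RPM there. So the list did not fall evenly. The 7 islet markers summed to 16.5 RPM (wt) and 17.9 RPM (menin-null) in PILECs, no more than in the mESCs (24.3 and 17.9 RPM), and of them Ins1, Ins2, Gcg, Iapp and Pdx1 lay between 0.21 and 1.36 RPM in PILECs. Most of the sum came from Neurod1, at 7.24 (wt) and 5.54 RPM (menin-null), and Nkx6-1, at 6.02 and 8.48 RPM. The mark was near absent at the genes of the islet hormones and at Pdx1. Markers of fibroblasts, the cell type of the feeder layer that the mESCs were freed from by repeated plating before use, summed to 52.6, 66.5, 61.2 and 51.2 RPM in the 4 kinds of cells, with Twist1 the largest part of each, between 26.5 and 39.0 RPM. Of this list Col3a1 was at 0.41 RPM in wt and 0 in menin-null mESCs and at 6.13 and 4.30 RPM in the PILECs. Thy1 went the other way, at 10.7 and 16.5 RPM in the mESCs and 4.53 and 6.79 RPM in the PILECs. Twist1 was at 30.0 and 39.0 RPM in the mESCs and 33.0 and 26.5 RPM in the PILECs. For Col1a1 and Col1a2 the intervals of the PILEC to mESC ratios include no change in each genotype. The 3 neural markers found in the annotation summed to 54.7, 76.2, 89.8 and 84.8 RPM with none at 0. Of these Tubb3 was at 18.1 and 30.1 RPM in the mESCs and 48.7 and 47.1 RPM in the PILECs. Pax6 was at 13.2 and 20.8 RPM in the mESCs and 20.1 and 21.8 RPM in the PILECs. Nes was not higher in PILECs, at 23.4 and 25.3 RPM in the mESCs and 21.0 and 15.9 RPM in the PILECs. The part of these other cell types in the results was not tested.

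The promoters themselves differed in CpG content, the feature of promoter DNA that goes with H3K4me3 in mammalian genomes. The 250 bases before 6 of the starts are given here, in the direction of transcription with CpG dinucleotides in capitals, because they set strongly marked starts beside starts of the same genes that were hardly marked. They are read from mm9, and the last base of each is the one before the annotated start. The Cdkn1a start that carried the mark (chr17:29230467-29230716, plus strand) had 19 CpG and the distal start of a second Cdkn1a transcript, 2.79 kb upstream of it (chr17:29227674-29227923, plus strand), had 2. Cdkn1b (chr6:134870169-134870418, plus strand) had 28. The 2 promoters of Cdkn2a, which make different proteins from overlapping reading frames, had 38 before the p19Arf transcript (chr4:88940558-88940807, minus strand) and 7 before the p16Ink4a transcript (chr4:88928097-88928346, minus strand), 12.5 kb further downstream. The upstream start of Cdkn2c (chr4:109339795-109340044, minus strand) had 4, and is shown because the mark of this gene lay mostly downstream of it.
Cdkn1a: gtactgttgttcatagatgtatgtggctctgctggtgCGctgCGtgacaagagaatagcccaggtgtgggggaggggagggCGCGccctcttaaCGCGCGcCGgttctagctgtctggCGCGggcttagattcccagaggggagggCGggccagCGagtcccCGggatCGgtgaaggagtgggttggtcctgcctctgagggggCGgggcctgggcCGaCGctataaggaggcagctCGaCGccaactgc
Cdkn1a, distal start: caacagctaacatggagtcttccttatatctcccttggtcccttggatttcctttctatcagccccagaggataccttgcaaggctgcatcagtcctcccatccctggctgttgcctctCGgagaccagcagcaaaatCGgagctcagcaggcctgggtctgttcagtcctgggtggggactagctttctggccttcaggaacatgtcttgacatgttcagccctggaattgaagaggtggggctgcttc
Cdkn1b: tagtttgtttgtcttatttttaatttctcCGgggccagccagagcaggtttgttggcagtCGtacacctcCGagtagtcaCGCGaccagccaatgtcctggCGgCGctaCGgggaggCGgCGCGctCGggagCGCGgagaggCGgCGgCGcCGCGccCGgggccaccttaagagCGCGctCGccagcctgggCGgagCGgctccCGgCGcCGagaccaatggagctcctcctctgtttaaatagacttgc
Cdkn2a, Arf start: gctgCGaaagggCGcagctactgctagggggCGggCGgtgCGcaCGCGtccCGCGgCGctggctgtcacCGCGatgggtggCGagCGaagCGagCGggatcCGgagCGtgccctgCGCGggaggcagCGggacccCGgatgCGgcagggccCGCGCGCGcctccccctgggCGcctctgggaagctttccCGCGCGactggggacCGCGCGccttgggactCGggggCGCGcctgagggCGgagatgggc
Cdkn2a, p16 start: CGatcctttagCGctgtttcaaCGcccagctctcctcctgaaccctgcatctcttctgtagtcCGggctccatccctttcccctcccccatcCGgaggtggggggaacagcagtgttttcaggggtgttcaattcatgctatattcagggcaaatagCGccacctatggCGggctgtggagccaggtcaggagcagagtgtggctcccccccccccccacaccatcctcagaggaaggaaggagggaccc
Cdkn2c, upstream start: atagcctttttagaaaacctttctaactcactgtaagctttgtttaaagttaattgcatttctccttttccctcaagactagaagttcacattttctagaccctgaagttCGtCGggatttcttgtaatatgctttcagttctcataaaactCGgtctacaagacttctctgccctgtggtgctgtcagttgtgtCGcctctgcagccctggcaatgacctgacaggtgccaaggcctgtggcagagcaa

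Within 500 bp on either side of the start, the start of the median gene held 40 CpG. The members ranged from 7 at the distal Cdkn1a start and 37 at the p16 start to 91 at Cdkn1b, 106 at Cdkn1c and 108 at the Arf start, which are more than at 87.9%, 93.7% and 94.3% of all genes. The best marked member was not the one with the most CpG, since Cdkn1b stood below the Arf start in CpG and above it in the mark in every H3K4me3 library. Cdkn1c stood near the Arf start in CpG and below it in the mark in every H3K4me3 library. The downstream Cdkn2c start held 38 CpG and 18.9 to 27.9 RPM. The p16 start and the internal Cdkn1a start, with 37 and 39 CpG, were hardly marked. Among short motifs searched on both strands of the 250 bases, GGGCGG, the core of the GC box that Sp1 binds, occurred 7 times before Cdkn1c, 3 times before the Arf start and before Cdkn2d, 2 times before Cdkn1a and 1 time before Cdkn1b, and 41.0% of the promoters of all genes held it. CCAAT, the CCAAT box, occurred 3 times before Cdkn1c, 2 times before Cdkn1b and 1 time before Cdkn2d and the internal Cdkn1a start, against 32.8% of all promoters. The letters TTTCCCGC, a sequence bound by E2F factors, were found 1 time, before the Arf start, and in 1.14% of all promoters. TATAAA and CACGTG were found before none of the 11 starts, against 11.2% and 6.26% of all promoters. These matches describe the letters and not binding.

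Of the 7 genes, 6 could be measured. At Cdkn2d (p19Ink4d), with its start at position 21095653 of chromosome 9, no tag of any of the 8 libraries lay within 1 kb. None of the 36-base stretches in that window occurs only once in mm9, with a median of 2 occurrences, and tags with more than 1 location were not kept by the authors, so the empty window says nothing of the mark. At every other start of the members between 93.6% and 100% of the 36-base stretches occur once. The remaining 6 genes carried H3K4me3 well above input at their best marked start in all 4 kinds of cells, between 5.08-fold for Cdkn1c in wt mESCs and 75.5-fold for Cdkn1b in wt PILECs. In bulk chromatin, fewer cells carrying the mark and less mark per cell cannot be told apart.

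**Figure D1:**
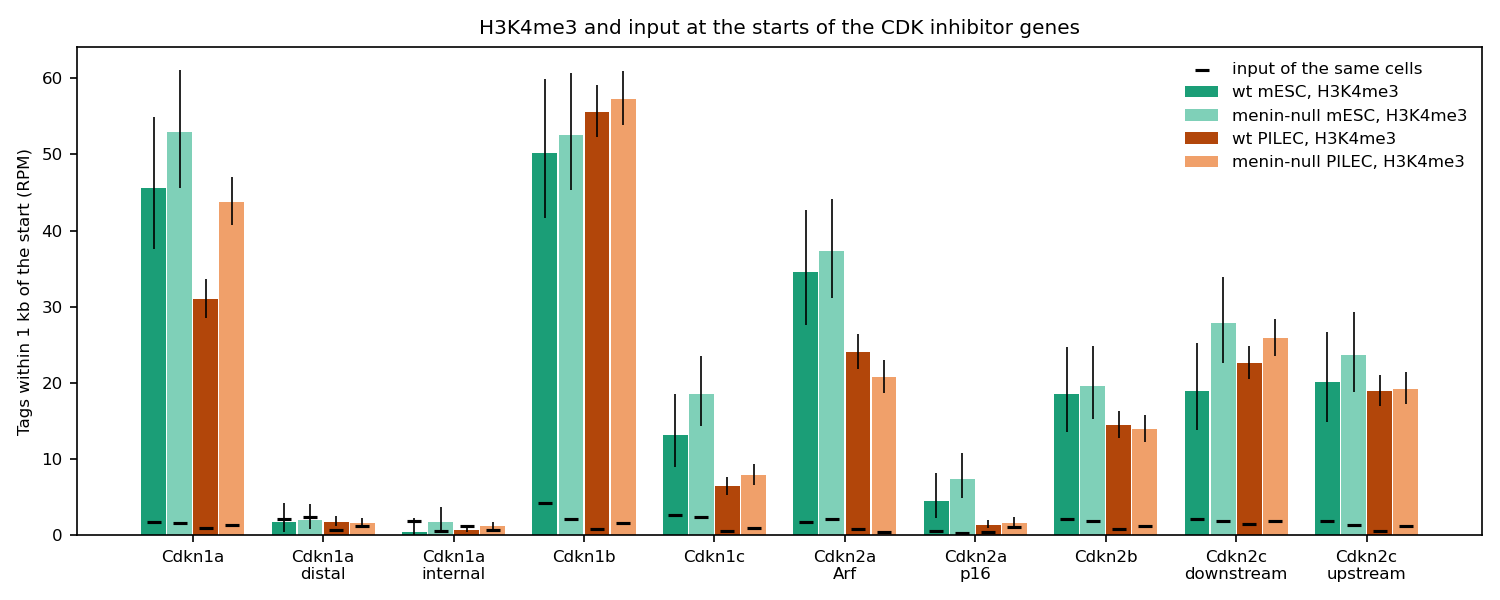
H3K4me3 tags within 1 kb of each measurable start of the CDK inhibitor genes (bars, RPM) in the 4 kinds of cells, 1 library each, with 95% counting intervals, and the input of the same cells (black dashes). Cdkn1b stands between 50.2 and 57.3 RPM in all 4 libraries, the distal and internal starts of Cdkn1a stay below 2 RPM, and the p16 start of Cdkn2a is at 7.39 RPM or less.

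Cdkn1b, the inhibitor that holds cells in quiescence, varied least among the members over the 4 libraries in the tags within 1 kb. In mESCs 122 tags were counted in the wt and 185 in the menin-null library, and in PILECs 1044 and 1013, which makes 50.2, 52.6, 55.6 and 57.3 RPM, against inputs of 4.24, 2.14, 0.74 and 1.55 RPM. The counting intervals of the 4 levels all overlapped, the widest being 41.7 to 59.9 RPM in wt mESCs. Menin-null over wt gave a log2 ratio of 0.07 (95% interval -0.27 to 0.41) in mESCs and 0.04 (95% interval -0.08 to 0.17) in PILECs, and the interval in PILECs holds no fall below 0.94-fold and no rise above 1.12-fold. Scaled by the tags near annotated starts, the ratio in PILECs was 0.13 (95% interval 0.01 to 0.26). Divided by the input ratio within 50 kb it was 0.15 (95% interval 0.03 to 0.28). That interval leaves out the counting error of the input ratio, which was -0.11 (95% interval -0.25 to 0.03). It therefore does not show that the divided ratio differs from 0. The level was above that of 84.9% to 95.3% of all genes.

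Cdkn1a (p21Cip1), a target of p53 that arrests cells after DNA damage, has 3 annotated starts, and 1 of them carried nearly all of the mark. At that start, position 29230717 of chromosome 17, 111, 186, 582 and 774 tags were counted in the same order of cells, or 45.6, 52.9, 31.0 and 43.8 RPM. The level was lowest in wt PILECs, and its interval there, 28.5 to 33.6 RPM, did not meet that of any of the other libraries. In PILECs the menin-null level was 1.41-fold the wt level (log2 ratio 0.50, 95% interval 0.34 to 0.66), and in mESCs 1.16-fold (log2 ratio 0.21, 95% interval -0.13 to 0.57). Within 2 kb of the start the log2 ratio in mESCs was 0.32, with an interval above 0 (95% interval 0.05 to 0.60). The distal start, position 29227924, held 1.64, 1.99, 1.76 and 1.58 RPM and the internal start, position 29235152, held 0.41, 1.71, 0.69 and 1.13 RPM. The input there was 0.53 to 2.40 RPM, and of these starts only the distal start in wt PILECs, at 2.57-fold over input (95% interval 1.32 to 5.32), was above it.

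Cdkn1c (p57Kip2), an imprinted inhibitor expressed from the maternal chromosome, had the weakest mark of the Cip/Kip genes. It had 32, 65, 120 and 139 tags in the same order of cells, or 13.2, 18.5, 6.39 and 7.86 RPM. The level in each kind of PILEC lay below that in the mESCs of the same genotype with no overlap of the intervals, which ran from 9.00 RPM upwards in wt mESCs and up to 7.64 RPM in wt PILECs. The menin-null libraries were above the wt libraries by a log2 ratio of 0.49 (95% interval -0.14 to 1.15) in mESCs and 0.30 (95% interval -0.06 to 0.66) in PILECs, intervals that include no difference. In mESCs it passed the rule with unmoved tags, at 0.72 (95% interval 0.07 to 1.40), and divided by the input ratio, at 0.69 (95% interval 0.06 to 1.35). The interval of the divided ratio leaves out the counting error of the input ratio, which was -0.20 (95% interval -0.43 to 0.02). In PILECs the interval of Cdkn1c lay above 0 within 2 kb, at 0.37 (95% interval 0.12 to 0.62), scaled by the tags near starts and set against the median gene. The start of Kcnq1ot1, the paternally expressed noncoding RNA of the same imprinted domain, lies 165 kb away and went the other way between stages, at 21.4, 27.6, 37.8 and 40.5 RPM.

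Cdkn2c has 2 annotated starts 1.82 kb apart and the mark lay mostly between them. The downstream start, position 109337977 of chromosome 4, held 46, 98, 424 and 457 tags in the same order of cells, or 18.9, 27.9, 22.6 and 25.8 RPM, and the upstream start, position 109339794, held 20.1, 23.6, 18.9 and 19.2 RPM. Either start alone leaves out part of the marked stretch. Counted from 1 kb before the upstream start to 1 kb past the downstream one, a choice made after these values were seen, Cdkn2c had 85, 152, 713 and 725 tags, or 34.9, 43.2, 38.0 and 41.0 RPM. At the downstream start the menin-null to wt log2 ratio was 0.56 (95% interval 0.04 to 1.10) in mESCs and 0.19 (95% interval 0.00 to 0.39) in PILECs. It was 0.23 and 0.02 at the upstream start, and 0.31 (95% interval -0.09 to 0.71) and 0.11 (95% interval -0.04 to 0.26) over the whole stretch. The interval at the downstream start took in 0 in mESCs when scaled by the tags near starts (-0.20 to 0.86), set against the median gene, divided by the input ratio, with unmoved tags, in thinned libraries, or within 500 bp or 2 kb. In mESCs the ratio passed 1.5-fold with an interval above 0 when the input was subtracted, at 0.63 (95% interval 0.11 to 1.17), and with at most 2 mismatches, at 0.60 (95% interval 0.07 to 1.14). In PILECs the interval took in 0 with 1 tag per position, unmoved tags, the 2 kb window, at most 2 mismatches, thinned libraries or the input divided out or subtracted. At neither start and not over the whole stretch was the RPM of Cdkn2c lower in menin-null cells.

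Cdkn2b (p15Ink4b), an INK4 inhibitor induced by TGF-beta, had 45, 69, 271 and 247 tags within 1 kb of position 88956941 of chromosome 4, or 18.5, 19.6, 14.4 and 14.0 RPM. The genotypes were close in each stage, with log2 ratios of 0.08 (95% interval -0.48 to 0.66) in mESCs and -0.05 (95% interval -0.30 to 0.21) in PILECs. Cdkn2a, 16.4 kb downstream of it from start to start, was marked at the start of Arf, whose product stabilises p53. The Arf start, position 88940557, had 84, 131, 451 and 366 tags in the same order of cells, or 34.5, 37.2, 24.0 and 20.7 RPM, with log2 ratios of menin-null over wt of 0.11 (95% interval -0.30 to 0.52) in mESCs and -0.21 (95% interval -0.42 to -0.01) in PILECs. This was the 1 member with a log2 ratio in PILECs whose interval lay below 0, at 0.86-fold. That interval took in 0 when the ratio was scaled by the tags near starts (-0.33 to 0.08), set against the median gene, divided by the input ratio, counted with unmoved tags, in thinned libraries, with the input subtracted, or counted within 500 bp or 2 kb of the start.

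The start of p16Ink4a, the CDK4 and CDK6 inhibitor of the Cdkn2a locus, was hardly marked. At position 88928096 it held 11, 26, 25 and 29 tags, or 4.52, 7.39, 1.33 and 1.64 RPM, against inputs of 0.47, 0.27, 0.42 and 1.10 RPM. In mESCs the mark was 9.61-fold (95% interval 2.10 to 89.2) and 27.7-fold above input (95% interval 4.55 to 1135), on 2 and 1 input tags. In wt PILECs it was 3.17-fold above input (95% interval 1.38 to 8.12), and in menin-null PILECs, at 1.49-fold (95% interval 0.81 to 2.77), it was not distinguishable from it at this depth.

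**Figure D2:**
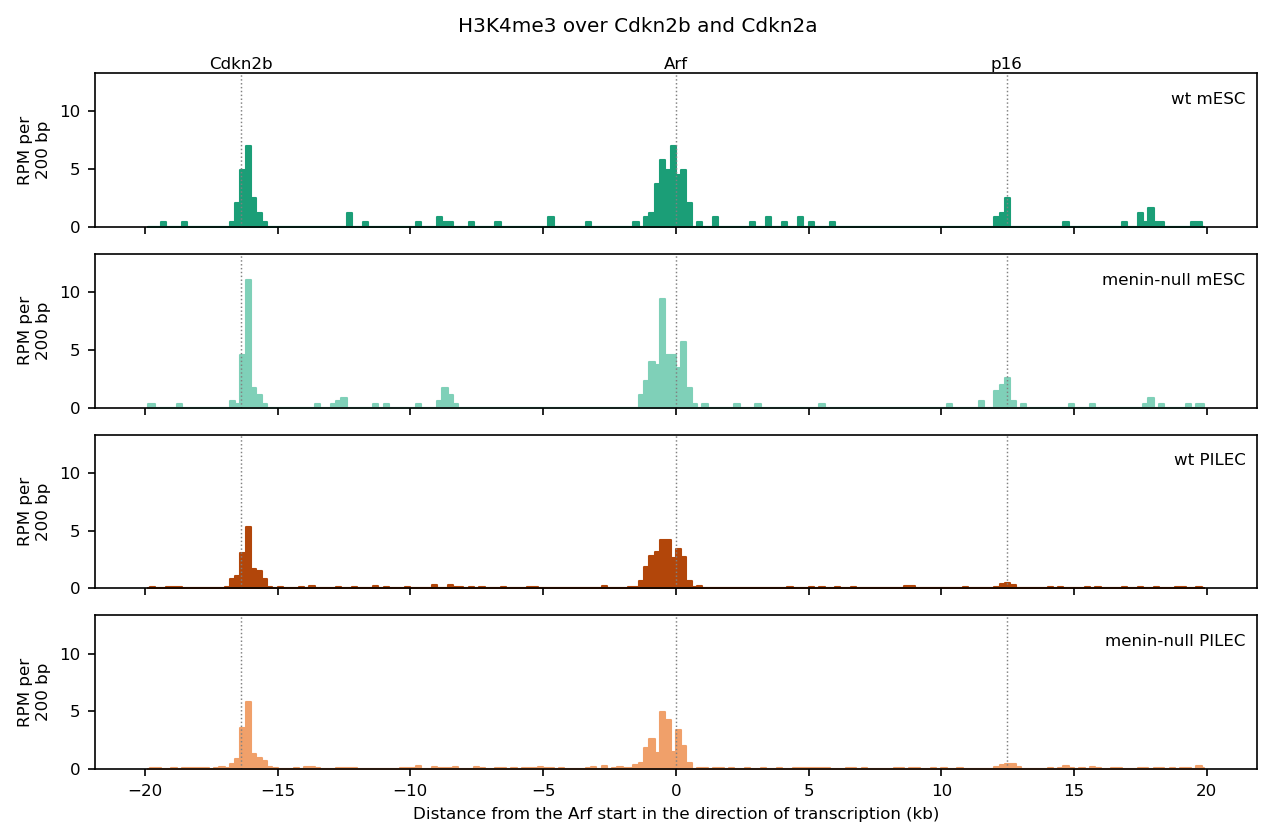
H3K4me3 in 200-bp windows (RPM, vertical axis) over 40 kb around the Arf start of Cdkn2a, plotted by distance in the direction of transcription (kb), in 1 panel per library. In every panel the mark stands at the Cdkn2b start, 16.4 kb upstream, and around the Arf start, and at the p16 start, 12.5 kb downstream, it is visible in the mESC panels and is near the baseline in the PILEC panels.

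Ordered by level, with the distal and internal starts of Cdkn1a left out, Cdkn1a and Cdkn1b were the 2 most marked members in every library and the p16 start was the least marked. In wt mESCs Cdkn1b and Cdkn1a (ratio 1.10, 95% interval 0.84 to 1.43), Cdkn1a and the Arf start (ratio 1.32, 95% interval 0.99 to 1.78), the downstream start of Cdkn2c and Cdkn2b (ratio 1.02), and Cdkn2b and Cdkn1c (ratio 1.41, 95% interval 0.87 to 2.29) did not differ beyond counting error. In menin-null mESCs this held for Cdkn1a and Cdkn1b (ratio 1.01, 95% interval 0.82 to 1.24) and for Cdkn2b and Cdkn1c (ratio 1.06, 95% interval 0.75 to 1.51). In the deeper PILEC libraries neighbours in the order were separated, in wt PILECs except the Arf start and Cdkn2c (ratio 1.06, 95% interval 0.93 to 1.22) and in menin-null PILECs without exception. In menin-null PILECs Cdkn2c was 1.25-fold above the Arf start (95% interval 1.09 to 1.44). The place of Cdkn2c in this order rests on the window at its downstream start, which leaves out part of its mark.

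With all deposited tags counted, no CDK inhibitor gene passed the rule for a difference between menin-null and wt cells. The rule asks for a change of at least 1.5-fold with an interval that leaves out no change. It was applied to genes with at least 20 tags in the 2 libraries together. Of the 6 measurable members 0 were higher and 0 lower in menin-null mESCs, where 9.63% of 15179 genes were called higher and 1.5% lower, and 0 were higher and 0 lower in menin-null PILECs, where 1.68% of 20388 genes were called higher and 4.2% lower. With 6 genes, a count of 0 is near these shares. With at most 2 mismatches per tag, the limit that the authors state, Cdkn2c was called higher in menin-null mESCs, at 0.60 (95% interval 0.07 to 1.14). By the interval alone, whatever the fold, Cdkn2c was higher in menin-null mESCs (25.8% of genes higher, 1.84% lower), and Cdkn1a and Cdkn2c were higher and Cdkn2a lower in menin-null PILECs (5.57% of genes higher, 23.5% lower).

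The median gene was not at 0 in these ratios. It was at 0.23 in mESCs and -0.07 in PILECs, and scaling by the tags near annotated starts in place of all tags brought it to -0.01 and 0.02. The median of the 6 members was 0.16 in mESCs, below the median gene, and 0.12 in PILECs, above it, with 2 of 6 members above the median gene in mESCs and 5 of 6 in PILECs. Set against the median gene, Cdkn1b was at -0.16 in mESCs and 0.12 in PILECs, Cdkn2c at its downstream start at 0.33 and 0.27, and Cdkn1a at -0.02 and 0.57. The ratio of Cdkn1a in PILECs was above that of 91.7% of all genes. Scaled by the tags near starts it was 0.59 (95% interval 0.43 to 0.75), which passes the 1.5-fold limit. It was lower when divided by the input ratio, at 0.37 (95% interval 0.22 to 0.53), within 2 kb, at 0.36, within 500 bp, at 0.40, and with 1 tag per position, at 0.40, and the input there had a log2 ratio of 0.12 (95% interval -0.02 to 0.27). The difference between the stages in the menin-null over wt ratio was 0.28 for Cdkn1a (95% interval -0.09 to 0.66), -0.03 for Cdkn1b (95% interval -0.38 to 0.33) and -0.36 for Cdkn2c (95% interval -0.90 to 0.18), PILECs minus mESCs, beside -0.33 for the median of 15102 genes. For none of the members did that interval leave out both 0 and the median gene. For comparison, loci that the study names moved much further, Meg3 by a log2 ratio of -3.72 (95% interval -5.10 to -2.60) in mESCs and Hoxa9 by -2.67 (95% interval -3.53 to -1.90) in PILECs.

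**Figure D3:**
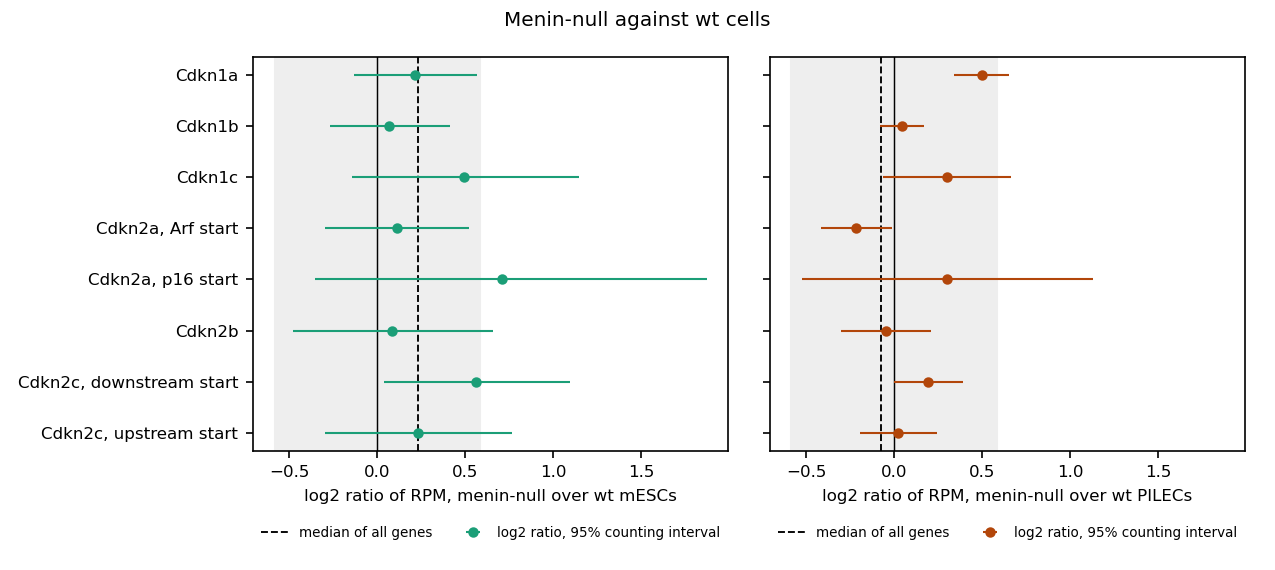
Log2 ratio of H3K4me3 (RPM within 1 kb of the start, horizontal axis) of menin-null over wt mESCs (left) and PILECs (right) at 8 starts of the CDK inhibitor genes, with 95% counting intervals, the median of all genes (dashed) and the range within 1.5-fold (grey). All points but that of the p16 start in mESCs, at 0.71, lie within the grey range, and Cdkn1a in PILECs stands farthest from the median of all genes there, at 0.50 against -0.07.

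Between the stages some members passed the rule, and with 6 genes their counts were near the shares of all genes given below. Cdkn1c was lower in PILECs of both genotypes, by log2 ratios of -1.04 (95% interval -1.61 to -0.43) in wt and -1.23 (95% interval -1.67 to -0.79) in menin-null cells, and passed the rule in each. The Arf start of Cdkn2a was lower by -0.52 (95% interval -0.86 to -0.17) in wt cells, short of 1.5-fold, with an interval that took in 0 when divided by the input ratio (-0.65 to 0.05), with 1 tag per position or in thinned libraries. Counted within 500 bp in wt cells, the Arf start passed the rule, at -0.64 (95% interval -1.04 to -0.21). It was lower by -0.85 (95% interval -1.14 to -0.55) in menin-null cells, where it passed. So 1 of 6 members was called lower and 0 higher in wt PILECs against wt mESCs, beside 20.3% of 16587 genes lower and 16% higher, and 2 of 6 lower and 0 higher in menin-null PILECs against menin-null mESCs, beside 34.4% of 16838 genes lower and 10.2% higher. By the interval alone 3 members were lower and 0 higher in wt PILECs (28.8% of genes lower, 24.5% higher), namely Cdkn1c, Cdkn2a and Cdkn1a, and 4 were lower and 0 higher in menin-null PILECs (48.5% of genes lower, 16% higher), with Cdkn1a and Cdkn2b beside those called. When each ratio was divided by that of the input within 50 kb, the median gene itself stood at 0.31 in wt and 0.00 in menin-null cells. On that scale Cdkn1c in wt cells lay below the median gene and no longer passed, at -0.17 (95% interval -0.74 to 0.44), and in menin-null cells it was at -0.61 (95% interval -1.05 to -0.17). The p16 start also passed the rule, at -1.76 (95% interval -2.84 to -0.59) in wt and -2.17 (95% interval -2.99 to -1.35) in menin-null cells.

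Cdkn1a in wt cells was lower in PILECs by -0.56 (95% interval -0.85 to -0.25), short of 1.5-fold. It passed 1.5-fold with 1 tag per position (-0.61), within 500 bp (-0.62) and in thinned libraries (-0.62). In menin-null cells it was lower by -0.27 (95% interval -0.51 to -0.03). Divided by the input ratio Cdkn1a was at 0.27 (95% interval -0.03 to 0.57) in wt cells, near the median gene at 0.31, and at 0.49 (95% interval 0.26 to 0.73) in menin-null cells, above the median gene at 0.00, and scaling by the tags near starts gave 0.09 (95% interval -0.15 to 0.33) in menin-null cells. Cdkn2b had ratios of -0.36 (95% interval -0.82 to 0.13) and -0.49 (95% interval -0.88 to -0.08). In menin-null cells the ratio of Cdkn2b was -0.13 (95% interval -0.52 to 0.28) when scaled by the tags near starts and -0.17 (95% interval -0.56 to 0.24) when set against the median gene, and it passed 1.5-fold within 500 bp (-0.66) and in thinned libraries (-0.80). Cdkn1b, at 0.15 (95% interval -0.12 to 0.43) and 0.12 (95% interval -0.10 to 0.36), and Cdkn2c over its whole stretch, at 0.12 (95% interval -0.21 to 0.46) and -0.08 (95% interval -0.33 to 0.19), had intervals that include no change. So did the downstream start of Cdkn2c, at 0.26 (95% interval -0.19 to 0.73) and -0.11 (95% interval -0.43 to 0.22). Within 500 bp of that start, which takes in only the edge of the mark, the ratio was past 1.5-fold upwards in each genotype. Within 2 kb of its start, however, Cdkn1b was higher in PILECs, by 0.42 (95% interval 0.17 to 0.69) in wt and 0.31 (95% interval 0.09 to 0.52) in menin-null cells. Divided by the input ratio it was at 0.67 (95% interval 0.40 to 0.95) in wt and 0.30 (95% interval 0.07 to 0.54) in menin-null cells. These intervals leave out the counting error of the input ratio, which in menin-null cells was -0.18 (95% interval -0.41 to 0.05). The divided value in menin-null cells is thus not shown to differ from 0. In menin-null cells Cdkn1b was also above 0 when scaled by the tags near starts, at 0.48 (95% interval 0.25 to 0.72), and when set against the median gene, at 0.45 (95% interval 0.22 to 0.68). With all tags as the scale the median gene was at -0.02 in wt cells and -0.32 in menin-null cells. Set against it, the Arf start in menin-null cells was at -0.52, no longer past 1.5-fold, as also when scaled by the tags near starts (-0.49) and in thinned libraries (-0.57), and Cdkn1c was at -1.02 in wt and -0.91 in menin-null cells. The 2 stages share neither library nor depth, and all stage ratios of a genotype rest on the same 2 libraries.

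**Figure D4:**
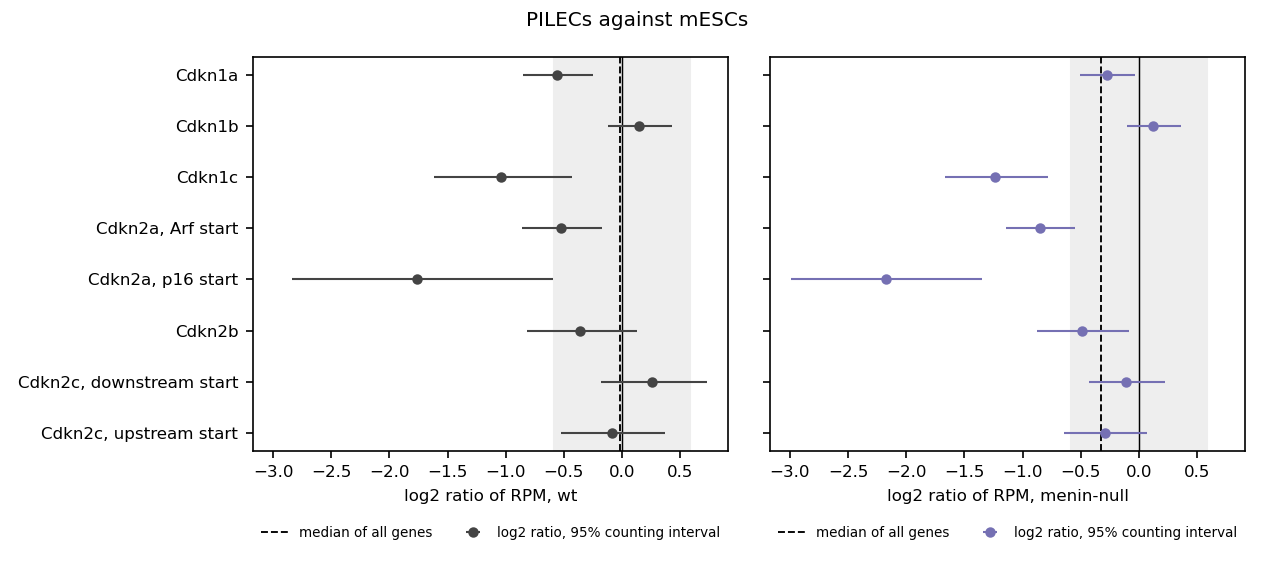
Log2 ratio of H3K4me3 (RPM within 1 kb of the start, horizontal axis) of PILECs over mESCs in wt (left) and menin-null cells (right) at 8 starts, with 95% counting intervals, the median of all genes (dashed) and the range within 1.5-fold (grey). Cdkn1c, at -1.04 and -1.23, and the p16 start, at -1.76 and -2.17, lie left of the grey range in both panels, and Cdkn1b lies within it in both.

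The width of the mark, taken as the span of 200-bp windows of at least 2 RPM joined over gaps of up to 400 bp, differed between members. Cdkn1b had the widest mark in wt mESCs and in the PILECs of each genotype and was level with Cdkn1a and Cdkn1c in menin-null mESCs, at 2.6 kb (wt) and 1.8 kb (menin-null) in mESCs and 2.6 and 2.4 kb in PILECs, beside a median over all marked genes of 1000 bp in the mESCs and 1200 bp in the PILECs of each genotype. It was wider than the mark of 82.9% to 95.8% of marked genes. Cdkn1a measured 1.8 kb in the mESCs and 1.6 kb in the PILECs of each genotype, Cdkn2c 1.6 kb in menin-null mESCs and 1.8 kb in the other cells, and the Arf start 1.6 kb in menin-null mESCs and 1.4 kb in the others. Cdkn2b was narrow, at 0.8 kb in wt mESCs and 0.4 kb in the others, and in wt and menin-null PILECs only 3.32% and 3.88% of marked genes were narrower. At Cdkn1c the mark measured 2 kb in wt and 1.8 kb in menin-null mESCs, and in PILECs 0 kb in wt and 0.2 kb in menin-null cells, where its highest windows were at 1.60 and 2.49 RPM. This rests on the limit of 2 RPM, since with a limit of 1 RPM the width of Cdkn1c was 2.4 kb in wt and 2.6 kb in menin-null mESCs and 1.6 and 2 kb in the PILECs. The p16 start measured 0.2 kb and 0.6 kb in mESCs and 0 kb in PILECs. The medians over the 6 genes were 1.8 and 1.7 kb in wt and menin-null mESCs and 1.5 kb in the PILECs of each genotype. No width differed between the genotypes by more than the 0.8 kb seen at Cdkn1b in mESCs. This difference rests on few tags. The Cdkn1b window from 1600 bp past the start held 6 tags in each mESC library, 2.47 RPM in wt and 1.71 RPM in menin-null cells. The window from 800 bp before it held 6 and 4 tags. At Cdkn2b the window from 400 bp past the start held 5 tags in wt (2.06 RPM) and 7 in menin-null mESCs (1.99 RPM). The widths in mESCs thus depend on depth, and their differences were not set against counting error.

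**Figure D5:**
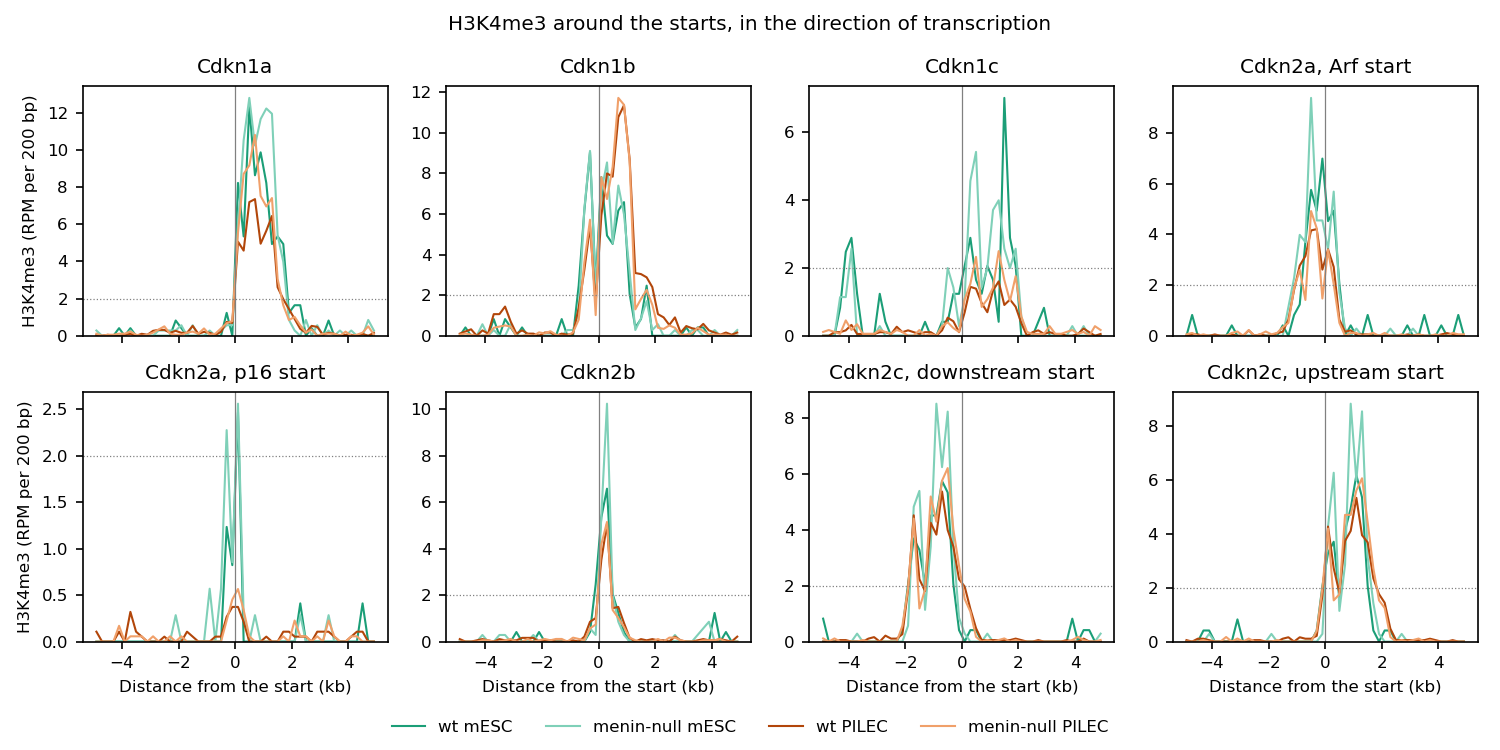
H3K4me3 in 200-bp windows (RPM, vertical axis, scaled per panel) within 5 kb of 8 starts, by distance in the direction of transcription (kb), 1 line per library, with the 2 RPM limit used for the width (dotted). The mark lies downstream of the start at Cdkn1a, Cdkn1c and Cdkn2b, mostly upstream of it at the Arf start, and between the 2 starts of Cdkn2c.

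The side of the start on which the mark lay differed between members. Of the tags within 2 kb of the start, those downstream made up 94.0% to 97.7% at Cdkn1a, 86.1% to 92.4% at Cdkn1c and 84.4% to 95.7% at Cdkn2b over the 4 libraries, beside medians of 61.5% to 71.0% over all genes. At the Arf start the share was 34.8% (Wilson 95% interval 25.7% to 45.2%) and 27.8% in the mESCs and 27.1% and 26.5% in the PILECs, each time wt first, and between 6.1% and 14.1% of all genes had a lower share in the same library. At the upstream start of Cdkn2c it was 92.8% to 98.7% over the 4 libraries. At the downstream start it was 2.4% (Wilson 95% interval 0.66% to 8.27%) in wt and 1.3% (Wilson 95% interval 0.36% to 4.67%) in menin-null mESCs, and higher in the PILECs, at 10.8% (Wilson 95% interval 8.69% to 13.3%) in wt and 7.5% (Wilson 95% interval 5.80% to 9.67%) in menin-null cells.

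Cdkn1b also differed between stages in this respect. The downstream share was 63.0% in the wt mESCs (Wilson 95% interval 54.7% to 70.6%) and 67.3% in the menin-null ones (Wilson 95% interval 60.7% to 73.3%), and in PILECs it was 84.0% in wt (Wilson 95% interval 82.0% to 85.8%) and 84.0% in menin-null cells (Wilson 95% interval 81.9% to 85.9%). In mESCs the highest window lay 400 to 200 bp before the start, at 9.04 RPM in wt and 9.10 RPM in menin-null cells. In PILECs that window held 5.38 and 5.71 RPM, and the highest windows lay 800 to 1000 bp past the start in wt cells, at 11.3 RPM, and 600 to 800 bp past it in menin-null cells, at 11.7 RPM. The window just before the start was low in all libraries, at 2.47, 2.27, 1.60 and 1.02 RPM. The median share of all genes was lower in PILECs, at 61.5% against 68.2% in wt and 62.5% against 71.0% in menin-null cells. These medians cover different gene sets, 14132 (wt) and 14809 genes (menin-null) in mESCs and 19810 and 19999 in PILECs. They do not show whether the share moved at the same genes. The shift at Cdkn1b was looked for after the profiles had been seen. Within 500 bp of the start the stage ratio of Cdkn1b was -0.19 in wt and -0.23 in menin-null cells. It was 0.15 and 0.12 within 1 kb and 0.42 and 0.31 within 2 kb.

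The input within 50 kb of the starts, which shows copy number and the background of open chromatin, differed between the genotypes beyond counting error at Cdkn1b in mESCs and at Cdkn2c in PILECs. At Cdkn1b in mESCs there were 193 input tags in menin-null cells and 299 in wt cells, a log2 ratio of -0.45 (95% interval -0.72 to -0.18), and only 1.58% of all genes had a lower one. Divided by it, the H3K4me3 ratio of Cdkn1b in mESCs was 0.52 (95% interval 0.18 to 0.86) in place of 0.07. The interval of the divided ratio leaves out the counting error of the input. Cdkn2b and Cdkn2a had input ratios in mESCs of -0.34 (95% interval -0.78 to 0.09) and -0.25 (95% interval -0.64 to 0.13). Their starts lie 16.4 kb apart, so that these windows overlap for the most part and the ratios are not separate measurements. In PILECs, which come from the same lines, the input ratio at Cdkn1b was -0.11 (95% interval -0.25 to 0.03). At Cdkn2c the input was higher in menin-null PILECs by 0.17 (95% interval 0.02 to 0.32), close to the H3K4me3 ratio of 0.19 at its downstream start. Between the stages the input of the median gene was at -0.24 in wt and -0.23 in menin-null cells. It was lower at Cdkn1c, by -0.87 (95% interval -1.04 to -0.69) in wt and -0.62 (95% interval -0.81 to -0.42) in menin-null cells, and at Cdkn1a, by -0.82 (95% interval -1.02 to -0.63) and -0.76 (95% interval -0.96 to -0.56). At Cdkn1b it was at -0.52 (95% interval -0.71 to -0.33) in wt and -0.18 (95% interval -0.41 to 0.05) in menin-null cells. The part of the input in these ratios was not tested.

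The 31 partners of the CDK inhibitors in the cell cycle, comprising CDKs, cyclins, retinoblastoma and E2F family members and their regulators, all had enough tags. None of them passed the rule in menin-null mESCs, beside 9.63% of all genes higher and 1.5% lower, with ratios from -0.30 to 0.57 and a median of 0.24. In menin-null PILECs 2 of 31 were lower and 0 higher, beside 4.2% of all genes lower and 1.68% higher, with a median of -0.22. These were E2f2, an activating E2F factor, at 21.1 RPM in wt and 12.6 in menin-null PILECs, with a log2 ratio of -0.74 (95% interval -0.99 to -0.50), and Tfdp1, the dimer partner of E2F factors, at 32.4 and 21.3 RPM, a log2 ratio of -0.61 (95% interval -0.80 to -0.42). Set against the median gene Tfdp1 was no longer past 1.5-fold, and E2f2 was. By the interval alone 14 of the partners were lower and 1 higher in menin-null PILECs, beside 23.5% of all genes lower and 5.57% higher, and of the 6 members 1 was lower and 2 were higher. Between stages 12 of 31 partners were lower and 2 higher in wt PILECs, with a median of -0.40, beside 20.3% of all genes lower and 16% higher. In menin-null PILECs 20 were lower and 1 higher, with a median of -0.83, beside 34.4% of all genes lower and 10.2% higher. The largest falls in wt PILECs were those of cyclin genes, Ccnd1 (cyclin D1) from 39.5 to 11.6 RPM, a log2 ratio of -1.77, and Ccnb2 (cyclin B2) from 23.8 to 9.16 RPM, a log2 ratio of -1.38. The genes that were higher there were Ccnd2 (cyclin D2), from 14.8 to 28.1 RPM, a log2 ratio of 0.93, and Trp53 (p53), from 43.6 to 74.2 RPM, a log2 ratio of 0.77.

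Of the 15 genes beside the members that were found in the annotation, 13 had enough tags in mESCs, and 2 were higher and 1 lower in menin-null mESCs, beside 9.63% of all genes higher and 1.5% lower. Phlda2, an imprinted growth regulator in the domain of Cdkn1c, rose from 24.3 to 36.7 RPM, a log2 ratio of 0.60 (95% interval 0.14 to 1.07), and Mtap, an enzyme of methionine salvage next to Cdkn2a, from 28.0 to 42.9 RPM, a log2 ratio of 0.62 (95% interval 0.20 to 1.05). Ap1m2, an adaptor protein gene of epithelial cells next to Cdkn2d, was lower in menin-null mESCs, at 7.68 RPM against 14.0, a log2 ratio of -0.86 (95% interval -1.65 to -0.09). It also passed the rule as higher in menin-null PILECs, at 1.58 RPM against 0.64, but on 28 and 12 tags (95% interval of the log2 ratio 0.29 to 2.42), and its input was not compared. Set against the median gene, neither Phlda2 nor Mtap was past 1.5-fold. Kcnq1, of the imprinted domain of Cdkn1c, fell in PILECs, from 21.0 to 1.17 RPM (wt) and from 22.5 to 1.47 RPM (menin-null). Phlda2 fell from 24.3 to 10.8 RPM (wt) and from 36.7 to 9.73 RPM (menin-null). So Cdkn1c was not the only start of that domain with less mark in PILECs. Ascl2 passed the rule as lower in wt cells and Slc22a18 in menin-null cells. Nap1l4, Tssc4 and Cd81 in the same region stood at 49.9 to 59.5 RPM in PILECs and did not pass. In menin-null cells Nap1l4 was lower by -0.57 (95% interval -0.77 to -0.36). Of 14 neighbours with enough tags 5 were lower and 0 higher in wt PILECs, beside 20.3% and 16% of all genes. In menin-null PILECs 7 of 14 were lower and 0 higher, beside 34.4% and 10.2%.

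The genes whose levels over the 4 H3K4me3 libraries were most like those of each member, by Euclidean distance in log2(RPM + 0.1), were Gtf2f1 and Cdnf for Cdkn1b (distances 0.05 and 0.07), Tbc1d8 and 2810474O19Rik for Cdkn2a (0.08 and 0.09), Cgnl1 and Rab3b for Cdkn2b (0.05 and 0.08) and Icam5 and Ece1 for Cdkn2c (0.08 and 0.11). The nearest genes were farther away for Cdkn1a, with Notch4 and Mmp17 (0.26 and 0.28), and for Cdkn1c, with Synj2 and Msx2 (0.25 and 0.33). Notch4 had 39.9 and 51.2 RPM in wt and menin-null mESCs and 33.5 and 40.2 RPM in the PILECs. It was chosen by these same 4 levels, so that a pattern shared with Cdkn1a follows from the choice.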

How the data were processed

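H3K4me3 ChIP-Seq and input libraries, 1 of each per condition and 8 in all, were analysed. Reads of 36 bp came from an Illumina GAII. The authors state that they kept reads with a unique location in mm9 and at most 2 mismatches. Of the deposited tags 1.04% to 1.81% per library listed more than 2 mismatches, and these were counted here except in the alternative that left them out. The aligner was not given in the sources used here. The deposited files list 1 tag per line with its position, so a count is an unnormalized number of tags, and the score column of the deposited lines was not used. Tags were moved 125 bp to the middle of a 250-bp fragment, and repeated tags (4.15% to 11.4% of the H3K4me3 libraries) were kept. Genes and starts came from GENCODE M1 (mm9), and of several starts the one with the most tags in the 4 H3K4me3 libraries was used. Promoter sequences were read from the mm9 genome. RefSeq promoter sequences (GRCm38.p6), matched exactly to mm9, gave the start of Kcnq1ot1 and, for 6 of the 7 members, starts at or near the annotated ones.

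Ratios of RPM were given exact conditional binomial (Clopper-Pearson) 95% intervals, which cover counting error only, as do the Poisson intervals of levels and the limit of 3 tags for a count of 0. With the input divided out or subtracted, these limits were moved with the ratio, and the counting error of the input was not added. The difference between the stages in the menin-null over wt ratio was given a normal approximation to the counting error. The counting was tested on simulated data. Starts over 2 kb apart counted as promoters of their own. All members were named, and of the partners and neighbours those that passed the rule, at most 4 per direction. The second Cdkn2c start, the partner and neighbour genes named for their change between stages, and the side of the start were chosen after their values were seen. The members and lists were chosen with earlier results of these data known. Python 3.11.15, numpy 2.4.6, pandas 2.3.3, scipy 1.17.1 and matplotlib 3.10.9 were used. There were 12 alternatives for the ratios and 5 for the widths.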

Additional observations from a re-analysis of the deposited data

How the results depend on the processing

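Each value was recomputed with the duplicates, tag position, window, scaling, use of the input, start, mismatches, depth, added tag, limits of the rule and width settings changed 1 at a time. Recomputed menin-null over wt ratios of single members were set against the counting interval of the value with the main settings. Within it lay 72 of 73 values in mESCs and 69 of 73 in PILECs. At Cdkn1b, Cdkn1c, Cdkn2a and Cdkn2b the 5'-most start is the start used, so that their value there could not move. Divided by the input ratio, Cdkn1b in mESCs was 0.52. At the 5'-most start, Cdkn1a in PILECs was -0.15, since that start is hardly marked. With libraries thinned to 2432377 tags, the PILEC ratios of Cdkn1c, Cdkn2b and Cdkn2c were 0.89, -0.57 and -0.13, on fewer tags. Their own 95% intervals, -0.10 to 1.94, -1.33 to 0.17 and -0.71 to 0.44, take in the values from all tags. The count of members called higher in menin-null mESCs was 1 in place of 0 with unmoved tags and with the input ratio (Cdkn1c each time), and with at most 2 mismatches or any fold (Cdkn2c each time). In PILECs 1 was higher when scaled by tags near starts (Cdkn1a), and with any fold 2 were higher and 1 lower. The member median in mESCs was -0.079 when scaled by tags near starts, -0.073 when centred on the median gene and 0.42 when divided by the input ratio, in place of 0.16, and in PILECs it did not move beyond the counting error.

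Of the stage ratios, 67 of 73 recomputed values in wt and 61 of 73 in menin-null cells stayed within that interval. Divided by the input ratio, in wt cells Cdkn1a was 0.27, Cdkn1b 0.67 and Cdkn1c -0.17, and in menin-null cells Cdkn1a was 0.49 and Cdkn1c -0.61, with the median gene at 0.31 and 0.00. Within 500 bp, Cdkn1b was -0.19 in wt and -0.23 in menin-null cells. Cdkn2c, whose mark lies 0.2 kb or more from the downstream start in mESCs, was 1.11 and 0.75, past 1.5-fold upwards in each genotype. At the 5'-most start Cdkn1a in wt cells was 0.10. In menin-null cells, scaling by tags near starts gave 0.086 for Cdkn1a, 0.48 for Cdkn1b, -0.49 for Cdkn2a and 0.25 for Cdkn2c, centring gave 0.051 for Cdkn1a, 0.45 for Cdkn1b and -0.52 for Cdkn2a, and 1 tag kept per position gave -0.12 for Cdkn1b. Where no cause is stated, it was not tested. The median width was 0.9, 1.2, 0.8 and 0.9 kb at 4 RPM in wt mESCs, menin-null mESCs, wt PILECs and menin-null PILECs, and 2.1 kb at 1 RPM in menin-null PILECs, and of the single widths 34 moved by more than 400 bp and 166 did not. Counting Cdkn2c over both starts and subtracting the input were chosen after seeing the data, and moved no ratio beyond its counting error, but with the input subtracted Cdkn2c in menin-null mESCs passed the rule, at 0.63. No paired analysis was possible because each condition had 1 library and the labels carry no replicate numbers. With 32 to 186 tags per member in the mESC libraries, depth limited the ratios there, with an interval from -0.14 to 1.15 at Cdkn1c.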
